A study of Felis catus with 8 samples.

Results

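The urea cycle and the breakdown of amino acids were followed through 36 liver genes listed by pathway: 7 of the urea cycle, 8 of aromatic amino acid breakdown, 3 of histidine and serine, 2 of lysine, 7 of branched-chain amino acids, 3 of propionate, 3 of methionine and 3 of glycine. A gene was measured through the probe sets, short groups of probes, that the platform annotation gives to that gene alone, and all 36 genes were measured among 17910 genes in all. The livers were those of male domestic cats (Felis catus) at 9 months of age, and each of 4 diets had 2 arrays. Controls ate standard cat chow, and MSG cats ate chow to which 1.125% of monosodium glutamate (MSG) was added. A diet called trans-fat/HFCS contained trans fat (8.6%) with high-fructose corn syrup (24%, HFCS), and a combined diet contained all 3 additions at these levels. Mothers ate the same diet from 3 weeks before mating through nursing, so all 4 groups differ in exposure before and after birth. The arrays carry human probes (HuGene 1.0 ST), so the signal of a cat transcript depends on how well it matches the human sequence. Levels are therefore not compared between genes.

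The liver removes the nitrogen of amino acids as urea. CPS1, activated by the product of NAGS, makes carbamoyl phosphate from ammonia, and OTC, ASS1, ASL and arginase carry the nitrogen to urea. The carbon skeletons go through separate chains of enzymes to glucose, ketone bodies or the citric acid cycle. The cat is an obligate carnivore whose liver is known for keeping these enzymes active whatever the protein intake, and MSG is itself a salt of an amino acid.

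Hepatocyte markers (16 genes such as ALB and TTR, with the member TAT among them) had a mean log2 intensity between 8.02 and 8.22 on the 8 arrays, and 0 of 16 passed limma's test for trans fat and HFCS, with 1 at an unadjusted p under 0.05. Skeletal muscle markers, 12 genes such as MYH1 and ACTA1, stood apart on the 2 trans-fat/HFCS arrays, and 10 of 12 passed as higher. Their mean log2 intensity was 5.80 and 5.87 there and between 3.61 and 3.77 on the other 6 arrays, and their summed intensity was 799.9 to 833.7 against 188.4 to 213.6. The changes of the members led with for trans fat and HFCS are therefore also given between the combined and MSG diets, which leaves those 2 arrays out. A few markers of other cell types also passed for trans fat and HFCS, a test that 7.66% of all genes passed. With lists of 5 to 8 genes, these counts are not read as a result about the cell types. Stellate cell markers had a mean log2 intensity of 4.20 to 4.52 with and 4.55 to 4.69 without them, with negative changes in 8 of 8 and 1 passing (PDGFRB, lower). Pancreatic markers were at 3.98 to 4.03 with and 3.63 to 3.77 without, and 2 of 6 passed as higher (CELA3A and INS). Of macrophage markers, at 4.37 to 4.61 with and 4.23 to 4.37 without, 1 of 7 passed as higher (CD68). Of kidney tubule markers, at 3.60 to 3.84 with and 3.62 to 3.78 without, 1 of 5 passed as lower (AQP2). No endothelial (7), cholangiocyte (6) or erythroid (3) marker passed in limma, with 0, 1 and 0 at an unadjusted p under 0.05. These marker genes were named after their values were seen, and the part of other cell types in the results was not tested. In whole tissue, fewer cells of a type and less RNA per cell cannot be told apart. Gene values correlated with r between 0.946 and 0.968 across genes for arrays of the same diet and between 0.917 and 0.956 for arrays of different diets.

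The first question was how these genes differed in cats fed trans fat and HFCS, as the average of the difference without MSG and the difference with it (4 arrays against 4). HAL, the enzyme that removes ammonia from histidine, was 1.52-fold higher (log2 change 0.60, SE 0.13). AGXT, the aminotransferase that turns glyoxylate into glycine, was 1.43-fold lower (log2 change -0.52, SE 0.12). The change of AGXT rested largely on 1 of its 10 kept probe sets, described below, and the other 9 changed by -0.21 on average. A gene passed the test at an adjusted p (Benjamini-Hochberg, over all genes) under 0.05 in limma. HAL and AGXT were the 2 genes of 36 (5.56%) to pass it, and 7.66% of all genes passed it. For a list of 36 genes these shares are close, so the count is not read as a result about the members. The median log2 change of the 36 was -0.011 against 0.016 for all genes, with 18 above and 18 below 0. An unadjusted p under 0.05 was found for 7 of 36 members (19.4%) and for 24.5% of all genes. For 27 of 36 members (75%) the whole 95% interval of the change lay inside 1.5-fold in either direction, as it did for 58.9% of all genes. The 4 arrays with trans fat and HFCS did not overlap the other 4 in 7 members (19.4%), and did not overlap in 15% of all genes. HPD, HAL, BHMT and AMT were the higher ones and ARG2, HGD and AGXT the lower ones.

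**Figure D1:**
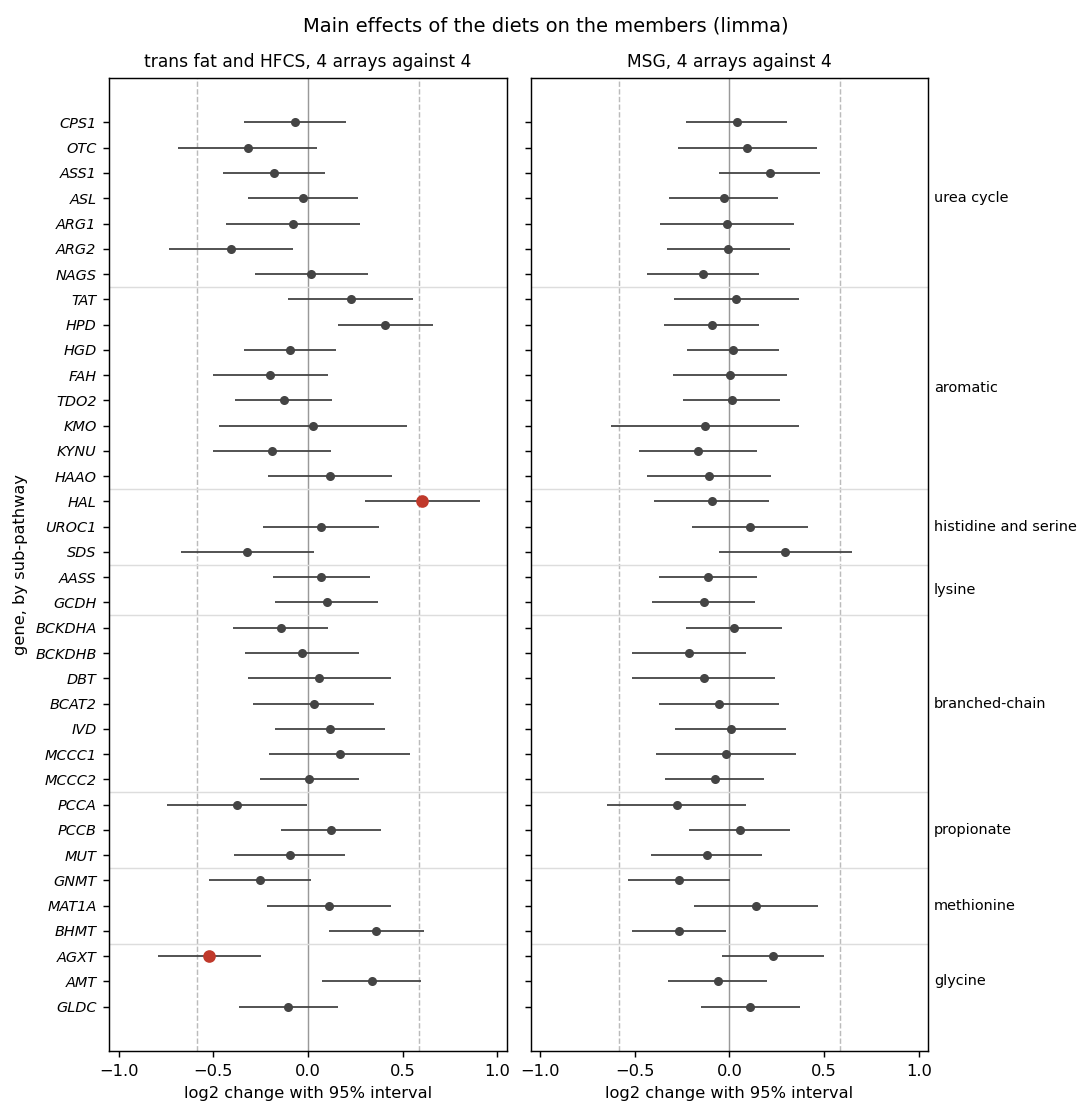
Log2 change of each of the 36 genes with its 95% interval (limma), for trans fat and HFCS (left) and for MSG (right), 4 arrays against 4 in each panel; red points passed at an adjusted p under 0.05, the solid line marks 0 and the dashed lines a 1.5-fold change. Red marks HAL (0.60) and AGXT (-0.52) on the left, and no gene on the right.

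The second question concerned MSG, and no member passed in any comparison that tests it. In the MSG main effect (4 arrays against 4) 0 of 36 members passed in limma against 0.329% of all genes. An unadjusted p under 0.05 was found for 1 of 36 (BHMT) and for 7.91% of all genes. The median log2 change was -0.025 for the members and 0.0035 for all genes, and for 33 of 36 members the 95% interval lay inside 1.5-fold, as for 76.1% of all genes. The arrays with and without MSG overlapped in all 36 members, whereas 2.68% of all genes did not overlap. In the MSG diet against control (2 arrays against 2) 0 of 36 passed against 0.296% of all genes. There 1 of 36 had an unadjusted p under 0.05 (SDS), against 7.64% of all genes. The interaction asks whether the difference with MSG was the same with and without trans fat and HFCS. For it 0 of 36 passed against 0.151% of all genes, and 2 had an unadjusted p under 0.05 (SDS and OTC), against 9.07% of all genes. Its 95% intervals were wide, and lay inside 1.5-fold for 2 of 36 members and 3.29% of all genes. The MSG main effect and the interaction both use the 2 trans-fat/HFCS arrays with high muscle markers. Of 12 muscle markers, 8 passed as lower in each, so these genes add to the shares of all genes given here. Without those 2 arrays, 0 of 36 members passed for the MSG diet against control, against 0.218% of all genes in limma.

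The remaining comparisons set each of the other diets against control with 2 arrays each. No member of 36 passed for the trans-fat/HFCS diet, where 2.48% of all genes passed in limma, and 5 had an unadjusted p under 0.05 (18.3% of all genes). No member of 36 passed for the combined diet either, where 1.16% of all genes passed, and 3 had an unadjusted p under 0.05 (16.5% of all genes). These 3 diet comparisons share the control arrays. Their 95% intervals were wider, and lay inside 1.5-fold for 18 of 36 members with the trans-fat/HFCS diet and 17 with the combined diet, against 28.2% and 28.7% of all genes.

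**Figure D2:**
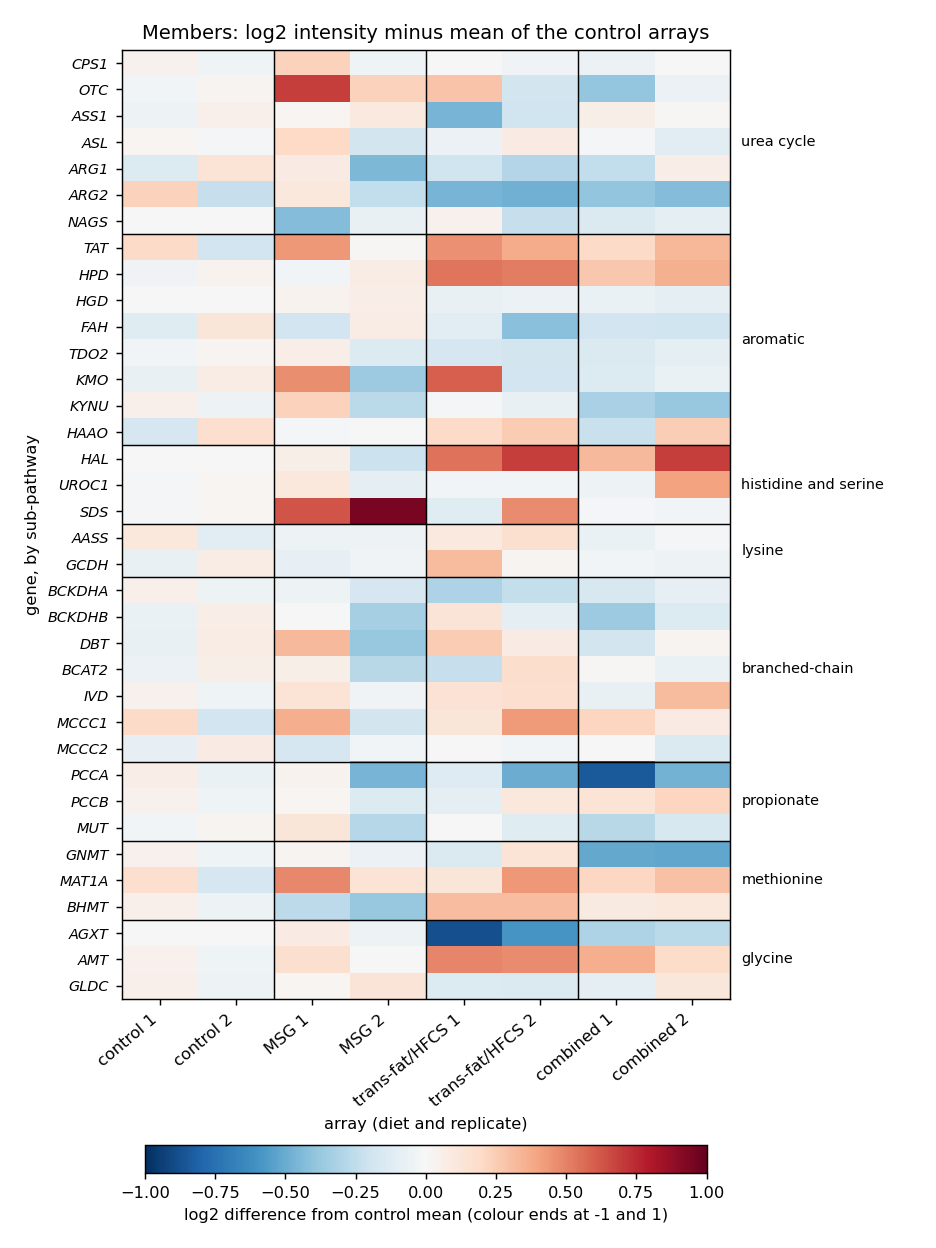
Log2 intensity of each of the 36 genes (rows, by sub-pathway) on each of the 8 arrays (columns) minus the mean of the 2 control arrays; red is higher and blue lower, and the colour scale ends at -1 and 1. HAL and HPD are red and ARG2 and AGXT blue on all 4 arrays with trans fat and HFCS, SDS is red on both MSG arrays, and most other rows stay pale.

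In the urea cycle 0 of 7 members passed limma's test for trans fat and HFCS, with 1 (ARG2) at an unadjusted p under 0.05. Their log2 changes lay between -0.41 and 0.02, with a median of -0.08. CPS1, the entry enzyme, had a log2 change of -0.07 (SE 0.12) and a 95% interval inside 1.5-fold over its 38 kept probe sets. Changes of ASL (-0.03), ARG1 (-0.08), NAGS (0.02) and ASS1 (-0.18) did not pass either, and that of ASS1 turned to 0.33 with the median of the probe sets.

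ARG2, the mitochondrial arginase, had log2 intensities of 3.88 and 3.42 on the control arrays, 3.75 and 3.40 on the MSG arrays, 3.19 and 3.17 on the trans-fat/HFCS arrays and 3.26 and 3.22 on the combined arrays. The 4 values with trans fat and HFCS lay below all of the other 4, which spread more widely. The log2 change of -0.41 (SE 0.14) did not pass (adjusted p = 0.124 in limma). All 6 kept probe sets of ARG2 had a negative change, from -0.83 to -0.07. Between the combined and the MSG diets alone, which leaves out the arrays with high muscle markers, the log2 difference was -0.34. With dim probe sets kept, ARG2 changed by -0.14.

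OTC, which makes citrulline in the mitochondrion, read 8.06 and 8.12 on control, 8.78 and 8.33 on MSG, 8.37 and 7.91 on trans-fat/HFCS and 7.71 and 8.03 on combined arrays. Its highest value was on 1 MSG array, and the arrays with and without trans fat and HFCS overlapped. The interaction was -0.74 (SE 0.32, adjusted p = 0.55 in limma), and all 9 kept probe sets had a negative interaction, from -2.03 to -0.09. The interaction was -0.16 with the median of the probe sets.

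Among the 8 genes of aromatic amino acid breakdown 0 passed for trans fat and HFCS, with 1 (HPD) at an unadjusted p under 0.05. Their log2 changes lay between -0.20 and 0.41, with a median of -0.03. HPD, the dioxygenase of the second step of tyrosine breakdown, read 9.24 and 9.31 on control, 9.24 and 9.35 on MSG, 9.81 and 9.79 on trans-fat/HFCS and 9.55 and 9.63 on combined arrays. All 4 arrays with trans fat and HFCS lay above the other 4. The log2 change was 0.41 (SE 0.11) and missed the threshold (adjusted p = 0.058 in limma). It rested largely on 1 of 10 kept probe sets, with a change of 2.96. That probe set read 3.41, 3.29, 3.12 and 3.93 on the control and MSG arrays and 6.75, 6.89, 6.21 and 5.72 on the trans-fat/HFCS and combined arrays. The other 9 changed by 0.13 on average, from -0.03 to 0.35. Between the combined and the MSG diets HPD differed by 0.29, and with the median of the probe sets its change was 0.17.

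TAT, which removes the amino group of tyrosine and is a known target of glucocorticoids, read 8.24 and 7.86 on control and 8.49 and 8.06 on MSG arrays. On the trans-fat/HFCS arrays it read 8.51 and 8.42, and on the combined arrays 8.24 and 8.39. The trans-fat/HFCS diet was 0.41 (SE 0.21) above control on the log2 scale, missing the threshold (adjusted p = 0.337 in limma). It was 0.22 without replicate 2 of the control diet, 0.11 with the brightest probe set and 0.81 with the median of the probe sets, and the combined and MSG diets differed by 0.04. The values with and without trans fat and HFCS overlapped. HGD, the homogentisate dioxygenase of the next step after HPD, separated the 4 arrays with trans fat and HFCS (8.10 to 8.13) from the other 4 (8.18 to 8.25). The log2 difference between these groups was -0.10, with an SE of 0.11 and an adjusted p of 0.635 in limma, and -0.13 between the combined and the MSG diets. The pooled SD of HGD within diets was 0.014, so this SE comes mostly from the spread over all genes that limma's moderation uses. FAH, the last enzyme of tyrosine breakdown, had a change of -0.20 (SE 0.13, adjusted p = 0.398 in limma), negative in 7 of 7 kept probe sets. With dim probe sets kept, all 16 on the array, the change of FAH was -0.08. It was -0.12 without replicate 2 of the trans-fat/HFCS diet, -0.05 with the median of the probe sets and -0.14 between the combined and the MSG diets. The tryptophan enzymes TDO2 (-0.13), KMO (0.03), KYNU (-0.19) and HAAO (0.12) did not pass in any comparison.

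HAL was the member with the largest called change. Its log2 intensity was 7.22 on both control arrays, 7.28 and 7.00 on the MSG arrays, 7.76 and 7.91 on the trans-fat/HFCS arrays and 7.55 and 7.91 on the combined arrays. The lowest value with trans fat and HFCS lay above the highest without. The change of 0.60 (95% interval 0.30 to 0.91) passed with an adjusted p of 0.030 in limma. The difference was 0.62 between the trans-fat/HFCS and control diets and 0.59 between the combined and MSG diets, so it was about as large without the arrays with high muscle markers (adjusted p = 0.186 in limma on the remaining arrays). The change was positive in 15 of 17 kept probe sets, with a median of 0.47. When 1 array at a time was left out it stayed between 0.51 and 0.70, with an adjusted p between 0.033 and 0.097 that was under 0.05 only without replicate 1 of the combined diet. When the median instead of the mean of the probe sets stood for the gene on each array, the change was 0.04 (adjusted p = 0.95 in limma), and with the brightest probe set it was 0.58 (adjusted p = 0.051).

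**Figure D3:**
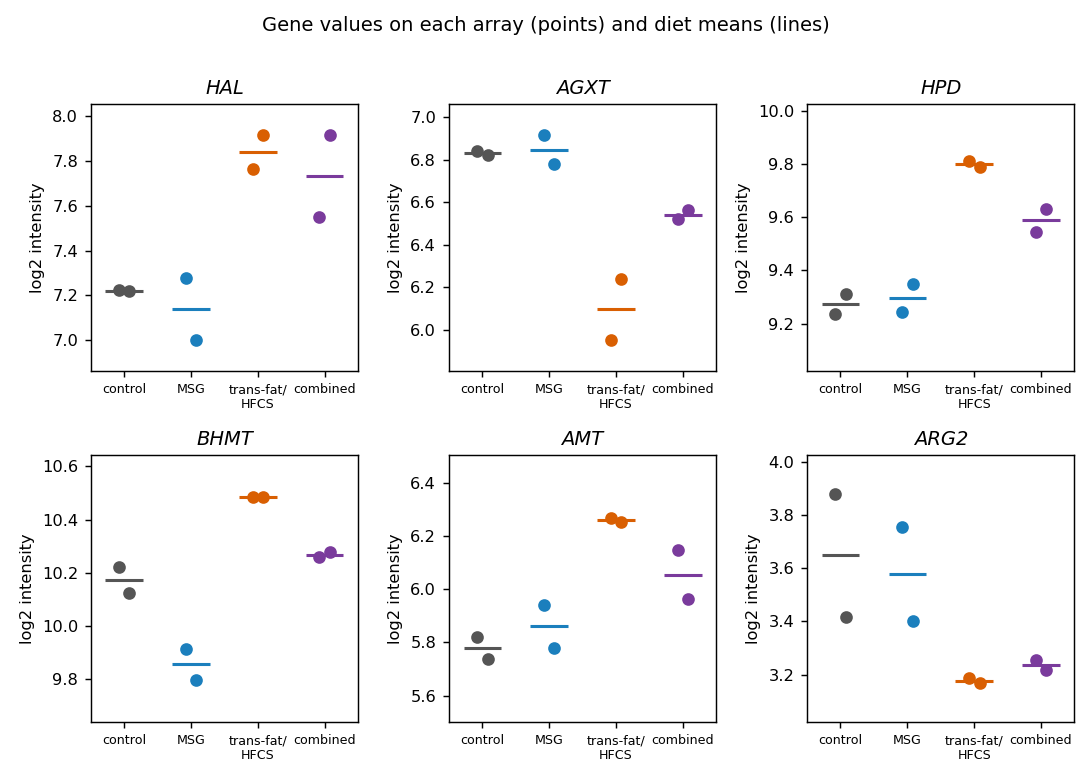
Log2 intensity (vertical axes, each with its own range) of HAL, AGXT, HPD, BHMT, AMT and ARG2 on each array; points are the 2 arrays of a diet and lines their mean. In each panel the 4 arrays of the trans-fat/HFCS and combined diets lie on one side of the other 4, for example 7.55 to 7.91 against 7.00 to 7.28 for HAL.

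The next enzyme of histidine breakdown, UROC1, differed by 0.07 on the log2 scale with trans fat and HFCS (SE 0.14, adjusted p = 0.801 in limma). SDS, which turns serine into pyruvate and ammonia, read 3.43 and 3.47 on control, 4.08 and 4.40 on MSG, 3.33 and 3.92 on trans-fat/HFCS and 3.43 and 3.42 on combined arrays. Both MSG arrays lay above the other 6. The MSG diet was 0.79 (SE 0.22) above control on the log2 scale, the largest difference of a member in that comparison, though short of the threshold (adjusted p = 0.355 in limma). It was 1.63 (adjusted p = 0.072) with the 75th percentile filter, 1.74 (adjusted p = 0.236) with the brightest probe set and 0.51 (adjusted p = 0.918) with the median of the probe sets. The interaction of -0.99 (SE 0.31, adjusted p = 0.406 in limma) did not pass either, and it was negative in 5 of 6 kept probe sets.

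For the 3 genes of glycine and glyoxylate, 1 of 3 passed for trans fat and HFCS. AGXT read 6.84 and 6.82 on control, 6.91 and 6.78 on MSG, 5.95 and 6.24 on trans-fat/HFCS and 6.52 and 6.56 on combined arrays. All 4 arrays with trans fat and HFCS were below the other 4, and the trans-fat/HFCS arrays were the lowest. The change of -0.52 (95% interval -0.79 to -0.25) had an adjusted p of 0.034 in limma. One of its 10 kept probe sets differed by -3.27, from 5.26, 5.41, 5.48 and 5.10 on the control and MSG arrays to 1.62, 1.74, 2.76 and 2.04 on the trans-fat/HFCS and combined arrays. Of these 4 low values 3 lay below the level that a probe set's mean had to exceed (log2 2.43), so this probe set was kept through its control and MSG values, and the size of its difference is uncertain. The other 9 changed by -0.21 on average, and 4 of 10 had a positive change. Among these 9 was a dim probe set that also lay close to that level (mean log2 2.60), with a change of -0.65. It averaged below the level on the arrays with trans fat and HFCS, so it too was kept through its control and MSG values. The average of -0.21 includes it. Between the combined and the MSG diets the difference of AGXT was -0.31 (adjusted p = 0.385 in limma without the trans-fat/HFCS arrays). With 1 array left out at a time the change stayed between -0.59 and -0.45, with an adjusted p between 0.048 and 0.112 that was under 0.05 only without replicate 2 of the trans-fat/HFCS diet. It was -0.25 (adjusted p = 0.501) with the median of the probe sets and -0.23 (adjusted p = 0.272) with the brighter probe sets alone.

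AMT and GLDC code for proteins of the glycine cleavage system, which releases ammonia from glycine. AMT read 5.82 and 5.74 on control, 5.94 and 5.78 on MSG, 6.27 and 6.25 on trans-fat/HFCS and 6.15 and 5.96 on combined arrays. The groups did not overlap, but the lowest combined value was close to the highest MSG value. Its change of 0.34 (SE 0.12) did not pass (adjusted p = 0.114 in limma). One of its 8 kept probe sets stood apart, with values of 8.05, 8.50, 8.06 and 8.49 on the control and MSG arrays and 10.07, 10.02, 9.72 and 9.69 on the trans-fat/HFCS and combined arrays. With that probe set, its brightest, standing for the gene AMT passed (adjusted p = 0.0027 in limma), and with the median of the probe sets its change was 0.07. Between the combined and the MSG diets AMT differed by 0.19. GLDC had a change of -0.10 (SE 0.12).

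In the methionine group 0 of 3 passed for trans fat and HFCS. BHMT, which remakes methionine from homocysteine with betaine, read 10.22 and 10.13 on control, 9.91 and 9.80 on MSG, 10.48 on both trans-fat/HFCS arrays and 10.26 and 10.28 on combined arrays. The 2 arrays of each diet lay close together, with the MSG arrays lowest and the trans-fat/HFCS arrays highest. The change with trans fat and HFCS was 0.36 (SE 0.11, adjusted p = 0.082 in limma), positive in 5 of 6 kept probe sets, and that with MSG was -0.27 (SE 0.11, adjusted p = 0.602 in limma). With its brightest probe set alone the change of BHMT with trans fat and HFCS was -0.0035. Between the combined and the MSG diets BHMT differed by 0.41.

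GNMT, which uses up S-adenosylmethionine by methylating glycine, read 5.12 and 5.03 on control, 5.10 and 5.02 on MSG, 4.93 and 5.21 on trans-fat/HFCS and 4.56 and 4.55 on combined arrays. The combined arrays were the lowest 2 of 8. The combined diet was -0.52 (SE 0.17) below control on the log2 scale, which did not pass (adjusted p = 0.178 in limma). With the 75th percentile filter this value was -0.80. MAT1A, the liver enzyme that makes S-adenosylmethionine, had a change of 0.11 (SE 0.14) with trans fat and HFCS.

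**Figure D4:**
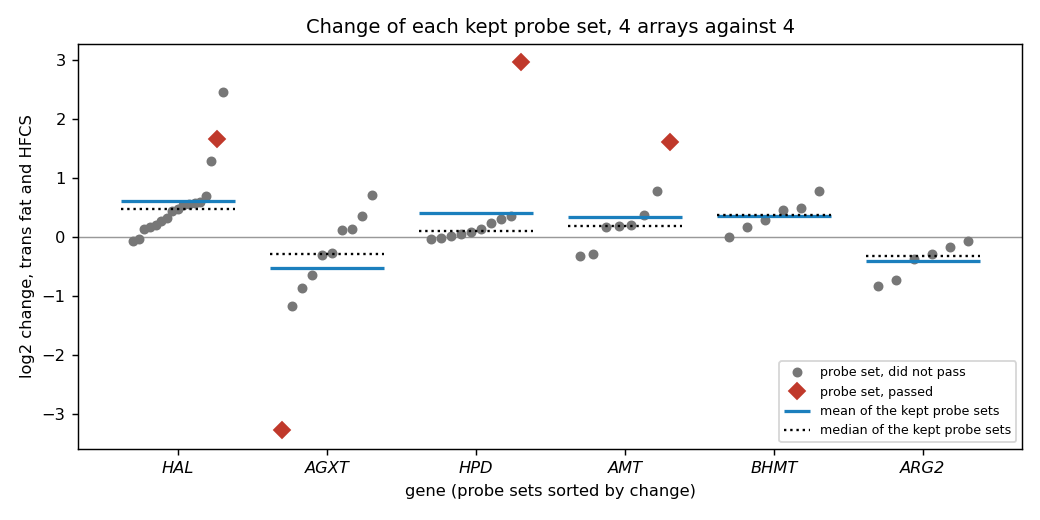
Log2 change with trans fat and HFCS (vertical axis) of every kept probe set of 6 genes, sorted within each gene; red diamonds passed at an adjusted p under 0.05 over all kept probe sets, blue lines are means and dotted lines medians. One probe set of AGXT (-3.27) and one of HPD (2.96) lie far from the others of their gene, while the points of ARG2 all lie below 0 and 15 of 17 of HAL above it.

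Lysine, branched-chain and propionate breakdown held no member that passed in any of the 6 comparisons. AASS, the first enzyme of lysine breakdown, read 6.49 and 6.27 on control, 6.32 and 6.32 on MSG, 6.48 and 6.54 on trans-fat/HFCS and 6.31 and 6.36 on combined arrays. GCDH, the glutaryl-CoA dehydrogenase of the same chain, read 4.86 and 5.02 on control, 4.86 and 4.90 on MSG, 5.26 and 4.97 on trans-fat/HFCS and 4.92 and 4.89 on combined arrays. In both genes the arrays with trans fat and HFCS overlapped those without, as did those with and without MSG, and the largest main effect was that of MSG on GCDH (log2 -0.14, SE 0.12, adjusted p = 0.857 in limma). That value was -0.06 without replicate 1 and -0.21 without replicate 2 of the trans-fat/HFCS diet.

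The 7 branched-chain genes had log2 changes between -0.15 and 0.17 with trans fat and HFCS, and all 7 had 95% intervals inside 1.5-fold there and with MSG. BCKDHA and BCKDHB code for the subunits of the dehydrogenase that commits branched-chain acids to breakdown. BCKDHA read 5.37 and 5.28 on control, 5.28 and 5.16 on MSG, 5.02 and 5.09 on trans-fat/HFCS and 5.16 and 5.24 on combined arrays. The trans-fat/HFCS arrays were the lowest, at -0.28 (SE 0.16, adjusted p = 0.40 in limma) against control. That difference was -0.15 with the 75th percentile filter and turned to 0.23 with the median of the probe sets. The values of BCKDHB were 7.76 and 7.89 on control, 7.82 and 7.50 on MSG, 7.95 and 7.73 on trans-fat/HFCS and 7.46 and 7.69 on combined arrays, and its MSG main effect was -0.22 (SE 0.13, adjusted p = 0.77 in limma), or -0.13 without replicate 2 of the MSG diet. The core subunit DBT (0.06), the transaminase BCAT2 (0.03), the leucine enzymes IVD (0.12) and MCCC1 (0.17), and MCCC2 (0.01) had small log2 changes with trans fat and HFCS.

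PCCA codes for the biotin-bearing subunit of propionyl-CoA carboxylase. It read 6.31 and 6.17 on control, 6.28 and 5.78 on MSG, 6.12 and 5.75 on trans-fat/HFCS and 5.40 and 5.77 on combined arrays. The control arrays lay above both combined arrays, and the log2 difference of -0.65 (SE 0.23) did not pass (adjusted p = 0.204 in limma). With the brightest probe set it was -0.04. Its partner PCCB changed by 0.12 (SE 0.12) with trans fat and HFCS. MUT, the cobalamin-dependent mutase that follows, read 7.59 and 7.64 on control, 7.73 and 7.33 on MSG, 7.61 and 7.50 on trans-fat/HFCS and 7.34 and 7.46 on combined arrays. The combined diet was -0.22 (SE 0.18, adjusted p = 0.598 in limma) from control, and the difference turned to 0.15 with the brightest probe set.

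Probe set by probe set, 7 of the members' 428 kept probe sets (1.64%) passed limma's test for trans fat and HFCS, against 2.45% of all 111624 kept probe sets. They belonged to 7 members, with 5 higher and 2 lower. Besides those of AGXT, HPD and AMT, they were a probe set of HAL (1.65), of ASL (1.63) and of IVD, which were higher, and of GCDH (-1.56), which was lower. For ASL, IVD and GCDH the gene as a whole had changes of -0.03, 0.12 and 0.10. ARG2 (6 of 11 probe sets kept) and FAH (7 of 16 kept) were the 2 members whose kept probe sets all had the same sign. With dim probe sets kept as well, their changes were smaller, at -0.14 and -0.08 in place of -0.41 and -0.20. The count of signs therefore describes the kept probe sets alone.

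The spread between the 2 arrays of a diet was uneven among the members. On the MSG diet 25 of 36 members were higher on replicate 1 than on replicate 2, whereas 47.4% of all genes were, and the median gap was 0.185 on the log2 scale against -0.02 for all genes. The widest gap of a member lay in the MSG diet for 18 of 36, and for 24.6% of all genes. The median size of the gap was 0.10 on control, 0.27 on MSG, 0.13 on trans-fat/HFCS and 0.08 on combined arrays for the members, and 0.18, 0.21, 0.21 and 0.23 for all genes. KMO (0.82), DBT (0.70), MCCC1 (0.54) and ARG1 (0.54) had the widest gaps between the MSG arrays. The comparisons with MSG thus rest on arrays that differed from each other in many of these genes.

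Of 78 other measured genes of the same pathways, 4 passed limma's test for trans fat and HFCS, 3 higher and 1 lower (5.13%, against 7.66% of all genes), and 20 had an unadjusted p under 0.05 (25.6%). IDO2, an indoleamine dioxygenase of tryptophan breakdown, read 5.54 and 5.93 on control, 6.05 and 5.43 on MSG, 4.87 and 4.73 on trans-fat/HFCS and 4.71 and 5.03 on combined arrays. It fell by 0.90 on the log2 scale (SE 0.17, adjusted p = 0.018 in limma) and was lower in 4 of 4 kept probe sets, of 9 on the array. The difference between the combined and MSG diets was -0.87.

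CA5A, the mitochondrial carbonic anhydrase that supplies bicarbonate to CPS1, read 3.25 and 2.92 on control, 2.98 and 3.10 on MSG, 3.74 and 3.90 on trans-fat/HFCS and 3.55 and 3.50 on combined arrays. Its rise of 0.61 (SE 0.13, adjusted p = 0.024 in limma) came from 2 kept probe sets at 0.21 and 1.01. MMACHC, which processes the cobalamin cofactor of MUT, read 3.48 and 3.54 on control, 3.57 and 3.84 on MSG, 4.26 and 4.73 on trans-fat/HFCS and 4.28 and 3.99 on combined arrays. It rose by 0.71 (SE 0.15, adjusted p = 0.025 in limma), in 5 of 5 kept probe sets. QPRT, which leads tryptophan carbon into NAD, rose by 0.51 (SE 0.13, adjusted p = 0.0495 in limma) with 1 kept probe set; it was named after its value was seen. In each of these 4 genes the 4 arrays with trans fat and HFCS did not overlap the other 4. They were named for passing the same comparison, so this adds little to it. Among the 78 genes 8 (10.3%) did not overlap, and 15% of all genes did not. Without both trans-fat/HFCS arrays the changes were 0.48 for CA5A, 0.43 for MMACHC and 0.64 for QPRT, and none of these genes nor IDO2 passed there (adjusted p from 0.146 for IDO2 to 0.292 for MMACHC). With 1 array left out at a time IDO2 passed in 4 of 8 fits, CA5A and MMACHC in 3 and QPRT in 1. With the brightest probe set alone none of the 4 passed (adjusted p from 0.071 to 0.718 in limma). The changes were then -0.52 for IDO2, 0.21 for CA5A, 0.61 for MMACHC and 0.51 for QPRT. With dim probe sets kept, MMACHC passed (log2 0.56, adjusted p = 0.0099 in limma). The other 3 then did not, at -0.39 for IDO2 (adjusted p = 0.093), 0.32 for CA5A (adjusted p = 0.081) and 0.14 for QPRT (adjusted p = 0.30). Set against control alone, MMACHC passed on the trans-fat/HFCS diet (log2 0.98, SE 0.21, adjusted p = 0.049 in limma). That call held in 2 of 8 fits with 1 array left out, and was lost with the 75th percentile filter (log2 0.30, adjusted p = 0.51), the median (adjusted p = 0.084) and the brightest probe set (adjusted p = 0.229).

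**Figure D5:**
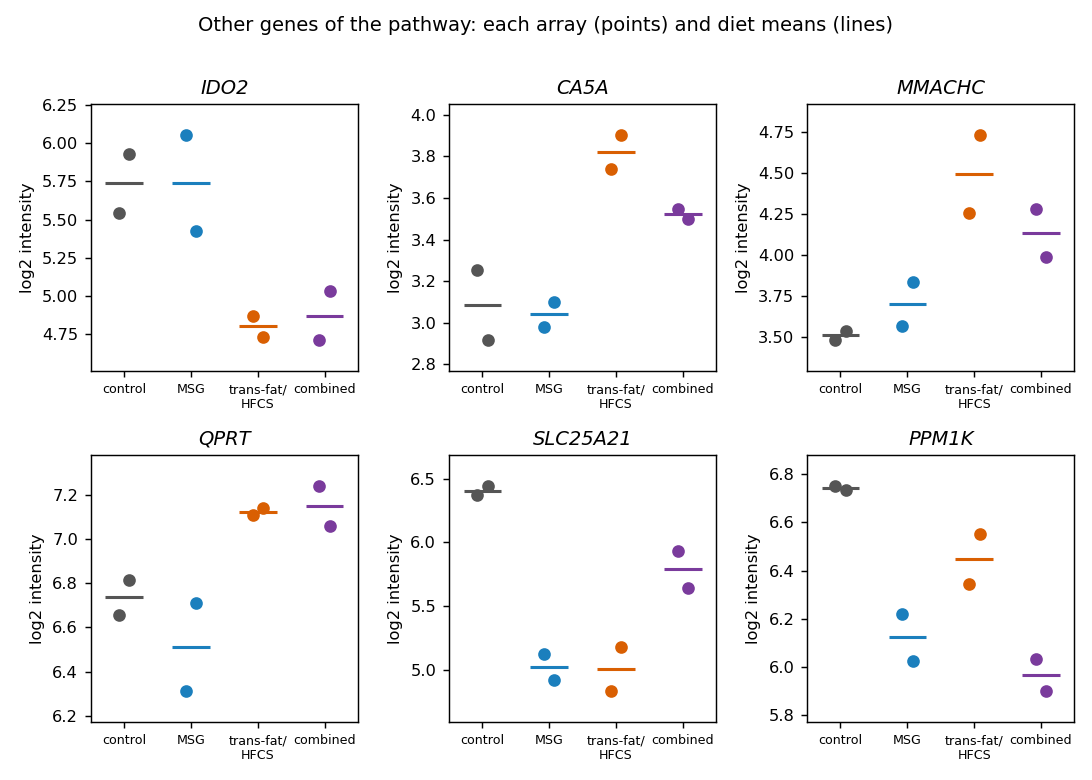
Log2 intensity (vertical axes, each with its own range) of 6 other genes of the pathways on each array; points are the 2 arrays of a diet and lines their mean. IDO2 is lower and CA5A, MMACHC and QPRT are higher on the 4 arrays with trans fat and HFCS, while SLC25A21 is high on control (6.37 and 6.44), low on the MSG and trans-fat/HFCS arrays and between them on the combined arrays.

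SLC25A21, the mitochondrial carrier of oxoadipate from lysine and tryptophan breakdown, was the gene of these pathways that passed for the interaction. It read 6.37 and 6.44 on control, 5.13 and 4.92 on MSG, 4.83 and 5.18 on trans-fat/HFCS and 5.93 and 5.64 on combined arrays. Each addition alone went with a lower level, by 1.38 for MSG (log2 -1.38, adjusted p = 0.024 in limma) and by 1.40 for trans fat and HFCS (log2 -1.40, adjusted p = 0.0094 in limma), and the combined diet lay nearer to control. The interaction was 2.16 (SE 0.27, adjusted p = 0.029 in limma), positive in 10 of 10 kept probe sets, from 0.47 to 2.94. With 1 array left out at a time it stayed between 1.99 and 2.34, and passed in 2 of 8 fits. The lower level on the MSG diet passed in 4 of 8 such fits and that on the trans-fat/HFCS diet in 5. With the median of the probe sets neither passed (adjusted p = 0.546 and 0.097), and with the brightest probe set the MSG diet did not (adjusted p = 0.144). For the MSG main effect no gene of these lists passed in limma, with 4 of 78 at an unadjusted p under 0.05, and the smallest p was that of PPM1K, the phosphatase that activates the branched-chain dehydrogenase (log2 -0.55, SE 0.12, adjusted p = 0.157 in limma).

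Among 14 measured regulators of amino acid metabolism, limma's test was passed by 1 higher and 1 lower gene for trans fat and HFCS (14.3%, against 7.66% of all genes). FKBP5, whose product binds the glucocorticoid receptor complex, read 3.70 and 3.66 on control, 3.13 and 2.78 on MSG, 5.31 and 4.85 on trans-fat/HFCS and 4.80 and 4.84 on combined arrays. Its change of 1.63 (SE 0.14, adjusted p = 0.0006 in limma) passed in 8 of 8 fits with 1 array left out, and was 1.86 without both trans-fat/HFCS arrays. Against control it also passed, at 1.40 on the trans-fat/HFCS diet (adjusted p = 0.012 in limma) and 1.14 on the combined diet (adjusted p = 0.040 in limma). These 2 calls held in 5 and 2 of 8 fits with 1 array left out, and neither held with the median (adjusted p = 0.157 and 0.310) or the brightest probe set (adjusted p = 0.193 and 0.149). TAT, named above as a glucocorticoid target, had a change of 0.23 (SE 0.15, adjusted p = 0.378 in limma) in the same comparison. FOXO1, a transcription factor held back by insulin signalling and named after its value was seen, had a change of -0.46 (SE 0.12, adjusted p = 0.047 in limma), which passed in 0 of 8 fits with 1 array left out.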

How the data were processed

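The deposited values are linear intensities of single probe sets that the authors had normalized. The submitters' processing notes name GCRMA, Partek and hg19, a human build, and give no versions or roles. Each array received label made from 250 ng of RNA, and RNA was taken from 4 to 5 livers a diet, per the labels' protocols; whether an array held a pool is not given in the sources used here. Intensities ran from 2.22 to 22966, with a median between 5.25 and 5.28 on each array. Precision is limited by how many arrays there are.

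The deposited intensities were log2 transformed. Probe sets annotated to 1 gene with a mean above the median of all 257101 (log2 2.43) were averaged per gene, which kept 428 of the members' 586 probe sets (4 to 38 a gene, median 10). Of the 36 symbols, 35 had an entry among the cat genes of assembly F.catus_Fca126_mat1.0, from which no coordinates were taken. A 4-group model of all 8 arrays was fitted by lmFit and eBayes of limma 3.58.1 (R 4.3.3), with two-sided tests, and p-values were adjusted (Benjamini-Hochberg) over 17910 genes, at a threshold of 0.05. Residual degrees of freedom were 4 and prior ones 5.01. The main effects average 2 differences between diets. Errors are limma's moderated standard errors. In the labels the arrays are biological replicates with no litter named, so p-values rest on the spread between these arrays, moderated towards that over all genes. Where the 2 arrays of a diet lay close together, the moderated error comes mostly from all genes. HGD and BHMT, for example, had a pooled SD within diets of 0.014 and 0.054 and an SE of 0.11 each.

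The members, the lists of other pathway genes, regulators and markers, and the tests were chosen with earlier results of these data known. Given with array values were members past the threshold and, in each sub-pathway, those with the smallest unadjusted p up to 2, and of the other genes up to 4 past the threshold a comparison. The test of single probe sets was chosen after seeing the data. The fit for trans fat and HFCS was tested on simulated gene values with 2-fold and 4-fold changes, larger than those called here among the members. The filter, the averaging of probe sets and the other comparisons were not tested in this way. Alternatives covered the filter, the summary of probe sets, normalization, an offset, the moderation, the replicate block, the model, and arrays left out. No sequences or coordinates are given, and some genes are not reported here.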

Additional observations from a re-analysis of the deposited data

Results flagged for a closer look

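The effect of MSG on SLC25A21, the mitochondrial oxoadipate carrier, differed between the diets without and with trans fat and HFCS, by an interaction of 2.16 on the log2 scale (adjusted p = 0.029 in limma). On chow, both MSG arrays (5.13 and 4.92) lay below both control arrays (6.37 and 6.44). On the trans-fat/HFCS base, both combined arrays (5.93 and 5.64) lay above both trans-fat/HFCS arrays (4.83 and 5.18). The interaction rests on all 8 arrays, including the 2 with high skeletal muscle markers, and has no value without them. The size of the difference with MSG on chow does not use them, but its adjusted p comes from a model of all 8 arrays. The adjusted p was 0.069 with the brighter probe sets alone, 0.335 with the median of the probe sets and 0.10 with the brightest probe set.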

How the results depend on the processing

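The count of members past the threshold for trans fat and HFCS was 2 with all 8 arrays and 0 to 1 when 1 array was left out: 0 without either control array, either MSG array, replicate 1 of the trans-fat/HFCS diet or replicate 2 of the combined diet. It was 0 with the median of the probe sets (3.32% of all genes passed) and 0 without both trans-fat/HFCS arrays, 1 with the replicate block (HAL) and 1 in a model without the interaction. It was 4 with an intensity trend and robust moderation (HPD, HAL, BHMT and AGXT, with 9.29% of all genes) and 5 with an offset of 16 (those 4 and AMT, with 13.6%). The count of 2 held other genes with the brightest probe set (SDS and AMT) and with the 75th percentile filter (HAL and SDS), and the same 2 with quantile normalization. Without a filter it was 3 (HPD, HAL and AGXT). Against control, the trans-fat/HFCS diet had 0 members with the stated settings, 1 without a filter (AGXT), 1 with the brightest probe set (AMT), 4 with the offset and 4 with the trend and robust moderation. The combined diet had 0, and 1 with the brightest probe set (AMT). The members' count stayed at 0 for MSG, the interaction and the MSG diet under every alternative run. Of the values of single genes under the alternatives, 407 kept their side of the threshold and were counted as the same. Among these, values that had not passed moved by less than the spread between arrays, while values that had passed could change in size. With the offset of 16, for example, AGXT went from -0.52 to -0.26 and FKBP5 from 1.63 to 0.95 for trans fat and HFCS. Another 42 had not passed and still did not, but moved by more than the spread between arrays. A further 124 no longer passed, 11 newly passed and 0 called values changed sign. The causes were not tested.

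The replicate numbers in the labels did not pair the arrays: deviations of same-numbered arrays correlated between -0.056 and 0.043. With the replicate block as a term, 1026 in place of 1372 genes passed for trans fat and HFCS, and the adjusted p was 0.049 for HAL, 0.055 for AGXT, 0.069 for the interaction and 0.065 for the MSG diet in SLC25A21, 0.072 for MMACHC on the trans-fat/HFCS diet and 0.058 for FKBP5 on the combined diet. With 2 arrays a diet, dim genes such as ARG2, SDS, CA5A and MMACHC lie close to the lower end of the intensities.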

Other observations

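Urea synthesis and the breakdown of histidine and serine are known to be strongest in the hepatocytes around the portal vein, while glutamine is made around the central vein. A list of 9 measured periportal genes, which holds the members HAL, SDS, CPS1 and ASS1, had a mean log2 intensity between 6.63 and 6.71 on 7 arrays and 6.90 on 1 MSG array. With trans fat and HFCS 1 of 9 (HAL) passed limma's test, where 7.66% of all genes passed, and the median log2 change of the list was -0.07. Of 11 measured pericentral genes 2 (18.2%) passed: RHBG, an ammonia transporter, was higher (log2 0.50, SE 0.12, adjusted p = 0.035 in limma), and CYP7A1, of bile acid synthesis, was lower (log2 -1.57, SE 0.13). The mean log2 intensity of the pericentral list lay between 5.24 and 5.48, and its median log2 change was 0.09. RHBG and CYP7A1 were named after their values were seen.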
